A study of Mus musculus with 4 samples.

Results

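Stathmin 1 and the tubulins were followed through a comparison of sorted epithelial cells of the adult mouse colon. The group was named by gene: 2 stathmins (Stmn1 and Stmn3), 4 alpha-tubulins (Tuba1a, Tuba1b, Tuba1c and Tuba4a) and 4 beta-tubulins (Tubb2a, Tubb2b, Tubb3 and Tubb5). It was assembled around Stmn1 because of that gene's ratio in these same arrays, to see whether its partner tubulins and its relative Stmn3 followed. The ratios below are therefore descriptions, and no p-value is given for a named member. Of the 10 genes, 9 had a probe among 27827 named genes with one, with 16 probes in all, and Tuba1b was not analysed here. After the filter on dim probes 8 of them stood among 14801 genes tested.

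The cells came from mice whose Lgr5 locus carries EGFP with an inducible Cre recombinase, so that GFP follows the promoter of Lgr5, the receptor that marks stem cells at the crypt base. GFP-positive cells gave RNA labelled Lgr5-GFP. Cells with high surface CD24, which the design describes as a part of the goblet cells, gave RNA labelled CD24hi. Both populations were from normal colonic crypts. The 2 RNAs were hybridised together on 4 arrays, as 2 replicates (n = 2), each with a first array and its dye swap. Whether separate animals gave the replicates is not stated, so the error may be technical. Each replicate also lay on its own slide, and slide and replicate cannot be told apart.

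Microtubules are polymers of paired alpha- and beta-tubulin. Stathmin binds free tubulin pairs, holds them out of the polymer and promotes the shrinkage of microtubule ends, and its phosphorylation at entry into mitosis releases them. Stmn1 is abundant in dividing cells, and Stmn3 is known mainly from neurons. The tubulin genes encode closely similar proteins that are used to different degrees by different cells. In the crypt, spindles of dividing cells and the long microtubule arrays of differentiated cells draw on them.

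The sort markers ran against the labels. The log2 ratio of Lgr5 was -3.41 ± 0.29 (SD, n = 2), lower in RNA labelled Lgr5-GFP (limma, adjusted p = 0.000459). Cd24a, which encodes CD24, was higher at 2.12 ± 0.30 (limma, adjusted p = 0.000590). All directions here follow the labels, with Lgr5-GFP on top of each ratio, and if the labels were exchanged, each higher would read lower. The dye swap of replicate 1 also stood apart, since the scanner software marked 75.3% of its 43379 gene spots as outliers and these were left out. Its median spot signal was 4377 in RNA labelled Lgr5-GFP and 1358 in RNA labelled CD24hi, against 94.2 to 197 on the other arrays. Its log2 ratios correlated with theirs at r = 0.724 to 0.766, while the others correlated with each other at r = 0.925 to 0.958. Where this dye swap gave no value, replicate 1 rests on its first array. Across all genes the median log2 ratio was -0.07 and the 2 replicates correlated at r = 0.909, across genes that are not independent. In pooled cells, a lower share of expressing cells and less RNA per cell cannot be told apart.

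Tubulin messages are alike over long stretches, so the probe decides which message is measured. Each probe was 60 bases long, and 5 of the 16 are printed, as the array files give them, because they carry the comparisons within a gene or between family members. Capitals in the Tubb5 probe mark the bases that match the brightest Tubb2a probe, A_52_P621603, where the ends of the 2 overlap. Over 25 aligned bases 22 matched, the closest pair among probes of different members.
Stmn1 A_52_P319161: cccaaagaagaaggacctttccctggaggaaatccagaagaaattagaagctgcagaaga
Tuba4a A_52_P409498: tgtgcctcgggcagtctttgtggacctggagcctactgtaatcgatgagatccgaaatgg
Tuba4a A_52_P676271: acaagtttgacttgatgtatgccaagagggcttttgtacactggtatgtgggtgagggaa
Tubb2a A_51_P103659: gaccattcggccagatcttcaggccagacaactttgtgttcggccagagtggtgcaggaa
Tubb5 A_52_P163796: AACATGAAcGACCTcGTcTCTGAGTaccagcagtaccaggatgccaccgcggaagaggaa

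These probes lie, in build mm9, at chr4:134026685-134026744 on the plus strand for Stmn1 and at chr17:35971963-35972022 on the minus strand for Tubb5. The Tuba4a probes, on the minus strand, lie at chr1:75213535-75213830 and chr1:75212307-75212366, in the order printed. The Tubb2a probe lies at chr13:34167380-34168088 on the minus strand. The files pair the brightest Tubb2a probe with the transcripts of 4 genes, Tubb2a, Tubb2b, Tubb3 and Tubb6, and list at most 4 transcripts for any probe. Its signal cannot be divided among them. Every other probe of the group was listed for 1 gene.

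The group split into 3 patterns. Stmn1 and Tubb5 were far lower in RNA labelled Lgr5-GFP, Tuba1a was higher, and on their brightest probes the other tubulins lay within 0.36 of 0 on the log2 scale. The fit across all genes called 47.7% of genes, 21.9% higher and 25.8% lower, at an adjusted p under 0.05. Of the 8 members tested it called 3, or 37.5%, with Stmn1 and Tubb5 lower and Tuba1a higher. The same contrast chose the group, so nothing is read from that share. All 3 calls, like those of all other genes, were lost when 1 step of the background correction was changed. With spots of uneven local background kept in that step, limma called 0 of 14801 genes, against 5542 at an unadjusted p under 0.05. The ratios themselves moved less, to -3.32 for Stmn1, -2.19 for Tubb5 and 1.04 for Tuba1a.

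**Figure D1:**
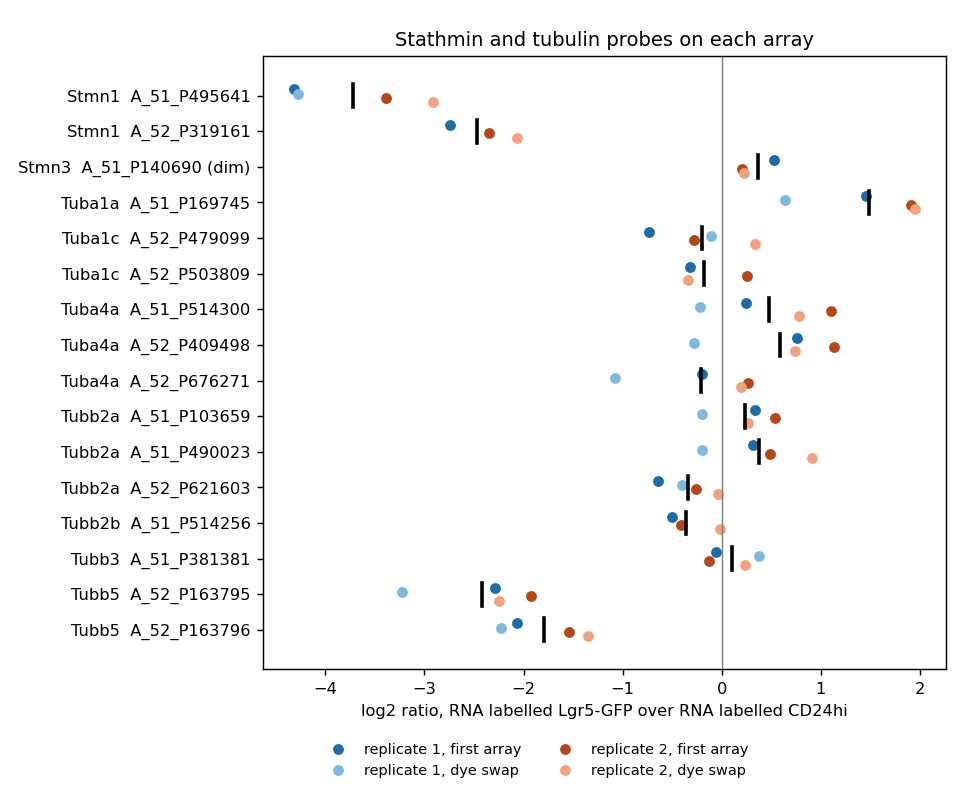
The log2 ratio of each of the 16 probes (rows) on each array (dots, coloured by replicate and dye order), with black bars at the mean of the 2 replicates. Every dot of the Stmn1 and Tubb5 probes lies below -1, every Tuba1a dot lies above 0.5, and the other tubulin probes straddle or sit near 0.

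Stmn1 had 2 probes. The brighter, A_51_P495641 (chr4:134029522-134029581, plus strand), read 2525, 7205, 2396 and 5915 units above local background in RNA labelled Lgr5-GFP, on the first array and the swap of replicate 1 and then on those of replicate 2. In RNA labelled CD24hi it read 75904, 44303, 36704 and 40449.8 on the same arrays. The populations did not overlap on any array, and the lowest CD24hi signal was above the highest Lgr5-GFP signal. These are signals before normalization, in arbitrary units.

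After normalization the log2 ratio of that probe was -4.31, -4.28, -3.38 and -2.91 on the 4 arrays in the same order. The mean was -3.72 ± 0.81 (SD, n = 2), which is 13.2-fold lower in RNA labelled Lgr5-GFP and rank 1 from the lowest of the 14801 genes tested. Replicate 1, at -4.29, lay 1.15 below replicate 2, at -3.15, and array and swap agreed to within 0.04 in replicate 1 and 0.47 in replicate 2. The second probe, A_52_P319161, gave -2.74, -2.35 and -2.06 on 3 arrays, with its spot on the dye swap of replicate 1 marked and left out. Its mean of -2.47 ± 0.38, or 5.55-fold lower, had the same direction and a smaller size. The size of the Stmn1 difference thus depends on the probe, while its direction does not.

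Stmn3 encodes a stathmin relative first studied in neurons. Its 1 probe (chr2:181041396-181041455, minus strand) was at the edge of detection. It read 55.9, 54.7 and 32.7 units in RNA labelled Lgr5-GFP and 22.1, 44.7 and 41.7 units in RNA labelled CD24hi, on the 3 arrays where its spot was kept. The signals of the populations overlapped. It passed the background test on 2 of 3 arrays in RNA labelled Lgr5-GFP and on 0 of 3 in RNA labelled CD24hi, so it was not tested. Its normalized log2 ratios were 0.53, 0.21 and 0.22, with a mean of 0.37 ± 0.22 (SD, n = 2). Over 14 alternatives the mean ran between 0.22 and 2.0, highest with the series table in place of the scanner files. The size of the ratio is thus not settled by these arrays. Stmn3 did not show the low ratio of Stmn1 on any of these arrays, but a level this close to background limits what can be said of it.

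**Figure D2:**
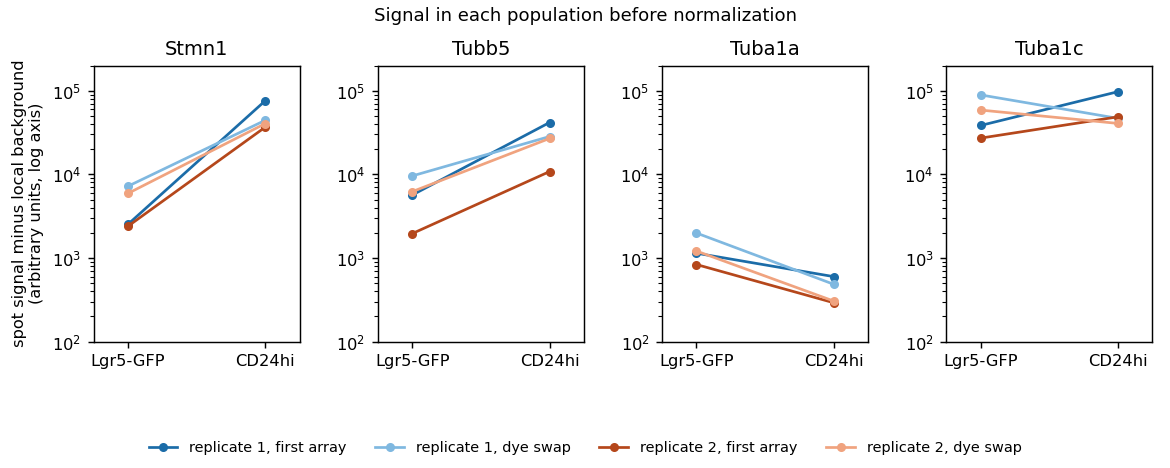
Spot signal minus local background (arbitrary units, log axis) of the probes of Stmn1, Tubb5, Tuba1a and Tuba1c in RNA labelled Lgr5-GFP (left of each panel) and in RNA labelled CD24hi (right), with 1 line per array before normalization. All 4 lines of Stmn1 and Tubb5 go up to CD24hi, all 4 of Tuba1a go down, and those of Tuba1c cross.

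Among the alpha-tubulins, Tuba1a stood apart. It encodes an alpha-tubulin best known from developing neurons. Its probe (chr15:98780278-98780293 in the file annotation, minus strand) read 1141, 1988, 835 and 1211 units in RNA labelled Lgr5-GFP and 599, 484, 292 and 305 units in RNA labelled CD24hi. Every Lgr5-GFP signal was above every CD24hi signal. The log2 ratios were 1.45, 0.64, 1.91 and 1.95, and the mean of 1.49 ± 0.62 (SD, n = 2) is 2.81-fold higher in RNA labelled Lgr5-GFP. The lowest of the 4 came from the dye swap of replicate 1, and the mean was 1.69 without that array. It was the highest ratio in the group and, among the tubulins of the group, the only one called higher.

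Tuba1c, an alpha-tubulin in wide use across tissues, was not called. Its brighter probe (A_52_P479099, chr15:98868480-98868536, plus strand) gave log2 ratios of -0.73, -0.11, -0.28 and 0.34, with a mean of -0.20 ± 0.32 (SD, n = 2). The other probe, A_52_P503809, gave -0.32, 0.26 and -0.34 on 3 arrays and a mean of -0.18 ± 0.20. Both means lay within their own spread of 0. The signals of A_52_P479099 ran between 27127 and 89017 units in RNA labelled Lgr5-GFP and between 40611.8 and 97428 units in RNA labelled CD24hi. Low signal did not limit this probe. Each swap read higher than its first array by 0.62, in both replicates, which is more than the mean ratio.

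Tuba4a encodes an alpha-tubulin whose reading frame ends without the final tyrosine that other alpha-tubulins carry. Its 3 probes did not give 1 direction. The brightest, A_52_P676271, gave -0.20, -1.08, 0.27 and 0.19 on the 4 arrays, with a mean of -0.21 ± 0.62 (SD, n = 2). A_51_P514300 gave 0.24, -0.21, 1.11 and 0.78, with a mean of 0.48 ± 0.66. A_52_P409498 gave 0.76, -0.28, 1.13 and 0.74, with a mean of 0.59 ± 0.49. The gene was not called. The sign of the mean differed between probes, but the brightest probe also changed sign between replicates, at -0.64 and 0.23. All 3 probes had their lowest ratio on the dye swap of replicate 1, and without that array the ratio of the brightest was 0.01.

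Tubb5 was the 1 tubulin of the group that was low together with Stmn1. It encodes a beta-tubulin found in most cells and abundant in dividing ones. Its brighter probe (A_52_P163795, chr17:35971872-35971931, minus strand) read 5657, 9574, 1958 and 6213 units in RNA labelled Lgr5-GFP and 41661, 28330.1, 10793 and 26866 units in RNA labelled CD24hi. On each array the CD24hi signal was the higher, and across arrays too the 2 populations did not overlap. The log2 ratios were -2.29, -3.23, -1.92 and -2.25, and the mean of -2.42 ± 0.48 (SD, n = 2) is 5.36-fold lower in RNA labelled Lgr5-GFP. That put it at rank 91 from the lowest of all genes tested. The second probe, A_52_P163796, gave -2.06, -2.23, -1.54 and -1.35, or -1.80 ± 0.50, so both probes gave the same direction.

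The other beta-tubulins gave small ratios. For Tubb2a, used widely in the nervous system, the brightest probe was the shared one, A_52_P621603 (chr13:34166411-34166470, minus strand), at -0.65, -0.40, -0.26 and -0.04, with a mean of -0.34 ± 0.27 (SD, n = 2). The probes listed for Tubb2a alone had means of the other sign, but these lay within their own spread of 0. A_51_P103659 gave 0.34, -0.20, 0.54 and 0.27, with a mean of 0.24 ± 0.24, and A_51_P490023 (chr13:34166129-34166158, minus strand) gave 0.32, -0.20, 0.49 and 0.91, with a mean of 0.38 ± 0.45. A_51_P103659 was dim on the arrays other than the dye swap of replicate 1. It read 82.0 to 123 units in RNA labelled Lgr5-GFP and 71.4 to 128 units in RNA labelled CD24hi. Because the shared probe is listed for 4 genes, a level set by it is not a level of Tubb2a alone. Tubb2a was not called.

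Tubb2b, a close copy of Tubb2a known from the developing brain, was dim. Its probe (chr13:34219061-34219120, minus strand) read 63.7, 38.4 and 49.7 units in RNA labelled Lgr5-GFP and 134, 65.2 and 76.6 units in RNA labelled CD24hi, on the 3 arrays where its spot was kept. The Lgr5-GFP signal was the lower on each array. It passed the background test on 2 of those arrays in RNA labelled Lgr5-GFP and on 3 of them in RNA labelled CD24hi. The log2 ratios were -0.50, -0.41 and -0.01, with a mean of -0.36 ± 0.20 (SD, n = 2), and the gene was not called.

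Tubb3, the beta-tubulin used as a marker of neurons, was spotted 10 times on each array (chr8:125945701-125945760, plus strand). Its mean log2 ratios were -0.06, 0.38, -0.13 and 0.24, with a mean over replicates of 0.11 ± 0.07 (SD, n = 2), and it was not called. Its spots show how well 1 array repeats itself. The SD over 9 spots was 0.06 on the first array of replicate 1, and over 10 spots it was 0.08 on the first array and 0.10 on the dye swap of replicate 2. The dye swap of replicate 1 kept 1 spot. In both replicates the swap read higher than the first array, by 0.44 and 0.37, so the gap between dye orders was larger than the gap between spots and larger than the mean ratio. The signal was low, at 87.5 to 120 units in RNA labelled Lgr5-GFP and 116 to 182 units in RNA labelled CD24hi on the arrays other than that swap.

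In order of mean ratio, the tested members ran from Stmn1 and Tubb5 through Tubb2b, Tubb2a, Tuba4a, Tuba1c and Tubb3 to Tuba1a. The brighter Stmn1 probe lay below the brighter Tubb5 probe in each replicate, at -4.29 and -3.15 against -2.76 and -2.08. The second Stmn1 probe, at -2.47 ± 0.38, and the brighter Tubb5 probe, at -2.42 ± 0.48, did not differ beyond their spread. The second Tubb5 probe had the highest mean of the 4 probes, at -1.80. Tubb2b, Tubb2a, Tuba4a and Tuba1c overlapped in their replicate values. Tubb3, at 0.16 and 0.06, lay above Tubb2b, Tubb2a and Tuba1c, the last at -0.42 and 0.03, and within the range of Tuba4a, at -0.64 and 0.23. Its gap to its neighbour Tuba1c was smaller than the SD of Tuba1c. Tuba1a, at 1.05 and 1.93, lay above all of these. The median over the 7 tubulins tested was -0.21, beside -0.07 over all genes. Of those 7, 1 was called lower, 1 higher and 5 neither.

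**Figure D3:**
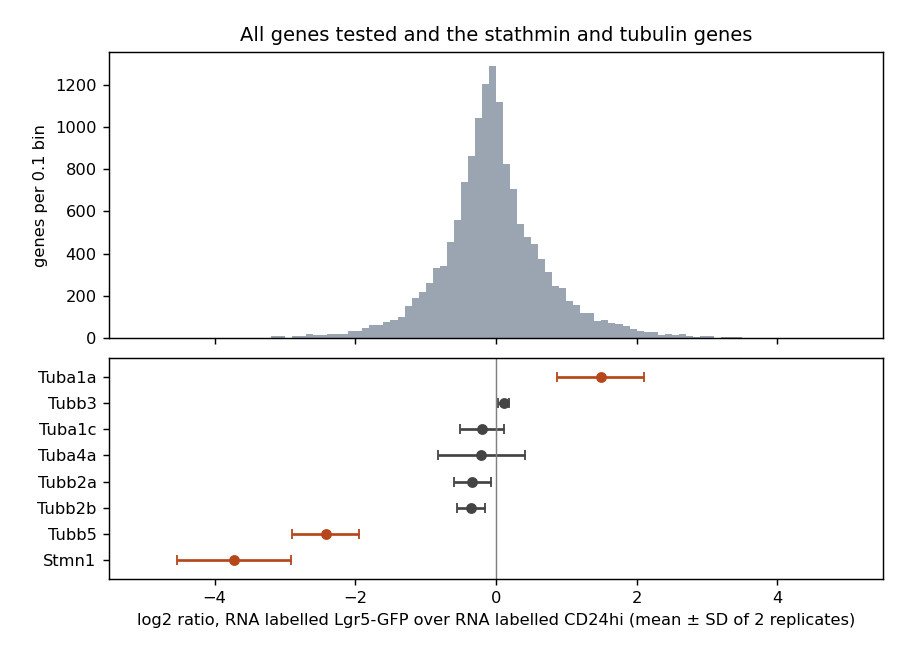
Above, the number of tested genes in each bin of the log2 ratio. Below, the 8 tested members on the same axis, as mean ± SD of the 2 replicates, with members called by limma in orange and the others in grey. Stmn1 and Tubb5 lie in the lower tail, Tuba1a in the upper one, and 5 tubulins lie near the centre.

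For several members the swap differed from its first array in the same direction in both replicates. The swap read higher than the first array in both for Tuba1c (A_52_P479099), Tubb3 and the shared Tubb2a probe, the last by 0.24 and 0.21. It read lower in both for the brighter Tubb5 probe, by -0.93 and -0.33, and for all 3 Tuba4a probes. The sign differed between replicates for Tuba1a (-0.81 and 0.04), Tubb2a probe A_51_P490023 (-0.52 and 0.42) and Tubb5 probe A_52_P163796 (-0.17 and 0.19). Each dye order was its own array, so dye and array cannot be told apart within a replicate. An offset due to dye cancels in the mean of an array and its swap. It does not cancel in replicate 1 for the 9420 of 14801 genes without a value on its dye swap. For Stmn1, Tubb5 and Tuba1a each single array gave the direction of the mean.

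The genes nearest to Stmn1 over the 4 arrays were chosen by Euclidean distance between log2 ratios, among 5371 genes with a value on each. The closest was Acsm3, a mitochondrial acyl-CoA synthetase, at a distance of 1.32 and a mean ratio of -3.14 ± 0.46 (SD, n = 2). Nlrp6, an innate immune sensor of the gut epithelium, followed at 1.52 with a ratio of -3.14 ± 0.20. Next came Hmgb2, a chromatin protein, at 1.83, Mcm6, a subunit of the replicative helicase, at 1.83, and Sapcd2 at 1.89. Mcm3, of the same helicase, was at 1.97. All 6 were low on each array, which a choice by distance to Stmn1 brings with it. Genes without a value on the dye swap of replicate 1, such as Birc5 and Mki67, could not be chosen.

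Genes of the cell cycle were low beside Stmn1 and Tubb5. Of 30 S phase genes tested, 29 were called lower and 0 higher, beside 25.8% and 21.9% of all genes. Their median log2 ratio was -1.99. Examples are Uhrf1, a factor of maintenance methylation, at -3.01 ± 0.46 (limma, adjusted p = 0.000478) and Mcm4, of the replicative helicase, at -2.89 ± 0.06 (limma, adjusted p = 0.000459). Of 30 genes of G2 and mitosis, 28 were called lower and 0 higher, with a median of -2.09. Birc5, the survivin subunit of the chromosomal passenger complex, was at -3.18 ± 0.54 (limma, adjusted p = 0.000512) and the proliferation marker Mki67 at -3.03 ± 0.62 (limma, adjusted p = 0.000607), or -2.12 without the first array of replicate 1, on another probe. The summed signal of the S phase genes was 14524 to 24840.5 units in RNA labelled Lgr5-GFP and 96992 to 149647 units in RNA labelled CD24hi, on the 3 arrays other than the dye swap of replicate 1. That of the G2 and mitosis genes was 8509 to 15642 units and 64674 to 135721 units in the same order. The part of the cell cycle genes in the ratios of Stmn1 and Tubb5 was not tested.

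Of 12 further tubulin genes listed, 7 were tested, with 3 called lower and 1 higher, beside 25.8% and 21.9% of all genes, and their median was -0.52. Nothing particular to these genes is read from that count. Tube1, the epsilon-tubulin of centrioles, was at -1.48 ± 0.19 (SD, n = 2; limma, adjusted p = 0.000919). Tubb4a, a beta-tubulin of the brain, was at -1.22 ± 0.83 (limma, adjusted p = 0.0147), and Tubg1, the gamma-tubulin that seeds microtubules, at -0.52 ± 0.14 (limma, adjusted p = 0.0207). Tubb6, another beta-tubulin, was higher at 0.38 ± 0.06, just past the threshold (limma, adjusted p = 0.0490), and kept its call in 4 of 13 alternatives. Tubd1, the delta-tubulin, was at 0.14 ± 0.11 and was not called (limma, adjusted p = 0.417). Tuba8 was not well above background on any array with a value. Of the other stathmin relatives, Stmn2 and Stmn4 were tested and neither was called, with Stmn4 at 0.02 ± 0.10 (limma, adjusted p = 0.892).

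Genes that fold tubulin were called lower more often than higher. These are the prefoldin and CCT chaperonin subunits, which fold new chains, and the cofactors that pair alpha with beta. Of 22 tested, 12 were called lower and 2 higher, beside 25.8% and 21.9% of all genes. Their median was -0.46. The chaperonin subunits Cct5, at -1.34 ± 0.29 (limma, adjusted p = 0.00158), Cct8, at -1.21 ± 0.11 (limma, adjusted p = 0.00131), and Cct4, at -0.96 ± 0.18 (limma, adjusted p = 0.00292), were the lowest named. The GTPase Arl2, a partner of the tubulin cofactors, was higher at 0.71 ± 0.03 (limma, adjusted p = 0.00582), as was Tbcel, at 0.69 ± 0.11 (limma, adjusted p = 0.00725). Of the cofactors Tbca to Tbce, Tbca was called lower, at -0.58. Tbcb, Tbcc, Tbcd and Tbce were not called, at -0.07, 0.15, 0.15 and -0.23. Pfdn5 was at -0.01 ± 0.02 and was not called (limma, adjusted p = 0.964).

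Genes that modify tubulin after synthesis were not low as a list. Of 30 listed, 19 were tested, with 5 called higher, 2 lower and 12 neither, beside 21.9% higher and 25.8% lower over all genes. Their median was 0.07. Tpgs1, a subunit of a polyglutamylase, was higher at 1.05 ± 0.03 (limma, adjusted p = 0.00175), and the tubulin deacetylase Sirt2 was higher at 0.91 ± 0.07 (limma, adjusted p = 0.00281). Ttll10, a glycylase, was at 0.72 ± 0.33 (limma, adjusted p = 0.0131), and without the first array of replicate 1, on another probe, at 0.27 and not called (limma, adjusted p = 0.735). Ttll6, a polyglutamylase, was lower at -1.67 ± 0.26 (limma, adjusted p = 0.000810), as was Lrrc49 at -0.53 ± 0.06 (limma, adjusted p = 0.0165). Nicn1 was at -0.03 ± 0.08 and was not called (limma, adjusted p = 0.852).

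The genes that start new microtubules had the lowest median of the lists that act on tubulin, at -0.81. Of 19 tested, 13 were called lower and 0 higher, beside 25.8% and 21.9% of all genes. Haus4 and Haus8, subunits of the augmin complex that branches spindle microtubules, were at -2.55 ± 0.50 (limma, adjusted p = 0.000645) and -1.83 ± 0.15 (limma, adjusted p = 0.000583). Tpx2, a spindle assembly factor that the G2 and mitosis list also holds, was at -2.14 ± 0.79 (limma, adjusted p = 0.00209). Tubgcp4 of the gamma-tubulin ring was at -0.04 ± 0.10 and was not called (limma, adjusted p = 0.828).

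Proteins that bind or stabilise the polymer went both ways. Of 28 tested, 7 were called higher, 12 lower and 9 neither, beside 21.9% higher and 25.8% lower over all genes. Their median was -0.23. Dst, a linker between filament systems, was higher at 1.74 ± 0.26 (limma, adjusted p = 0.000735). Without the first array of replicate 1, when another of its probes stood for it, Dst was at 0.43 and not called (limma, adjusted p = 0.517). Also higher was the plus-end protein Clip1 at 1.58 ± 0.04 (limma, adjusted p = 0.000664). Camsap3, which anchors microtubule minus ends in epithelial cells, was higher at 1.14 ± 0.58 (limma, adjusted p = 0.00759). The lower ones named were spindle proteins. Prc1 was at -2.64 ± 0.27 (limma, adjusted p = 0.000475) and Tacc3 at -1.73 ± 0.72 (limma, adjusted p = 0.00320). Nusap1 was at -1.83 ± 0.55 (limma, adjusted p = 0.00160), but on the first array and swap of replicate 1 it read -2.97 and 0.09. Its mean was -1.07 without that first array and -2.60 without that swap. Tacc1 was at -0.06 ± 0.02 and was not called (limma, adjusted p = 0.723).

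Other proteins that, like stathmin, take microtubules apart were low where they were called. Of 11 severing and depolymerising genes tested, 6 were called lower and 0 higher, beside 25.8% and 21.9% of all genes. Their median was -0.45. Fignl1, a relative of the severing enzymes that also acts in DNA repair, was at -2.45 ± 0.42 (limma, adjusted p = 0.000590). The kinesin Kif2a was at -1.17 ± 0.23 (limma, adjusted p = 0.00191). The kinesin Kif18a was called lower as well, but it was above background on 0 of 3 arrays in RNA labelled Lgr5-GFP and on 3 of 3 in RNA labelled CD24hi, so no size is given. The severing subunit Katna1 was at -0.02 ± 0.11 and was not called (limma, adjusted p = 0.909).

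Kinases and phosphatases that act on stathmin were mostly not called. Of 19 tested, 4 were lower, 2 higher and 13 neither, beside 25.8% lower and 21.9% higher over all genes. Their median was -0.02, and nothing particular to these genes is read from the counts. The mitotic kinases Aurkb and Cdk1 were lower, at -1.94 ± 0.69 (limma, adjusted p = 0.00210) and -1.62 ± 0.28 (limma, adjusted p = 0.000912). Mapk8 was at -1.03 ± 0.70 (limma, adjusted p = 0.0172). Ppp2r1a, the scaffold of phosphatase PP2A, was higher at 1.02 ± 0.03 (limma, adjusted p = 0.00192). Pak1 was just past the threshold at 0.41 ± 0.16 (limma, adjusted p = 0.0453), and without the first array of replicate 1, on another probe, it was at -0.0351 and not called. Ppp2cb was at 0.00 ± 0.42 and was not called (limma, adjusted p = 0.999). Over all 127 pathway genes tested, 52 were called lower and 17 higher, beside 25.8% and 21.9% of all genes. Their median was -0.23.

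**Figure D4:**
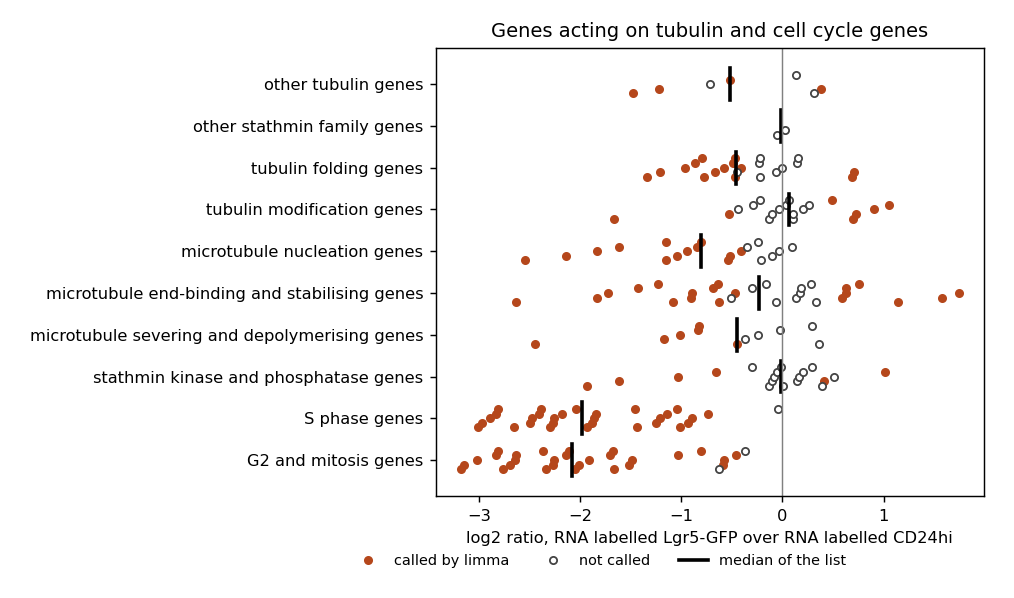
The log2 ratio of each tested gene (dots) in the lists that act on tubulin and in the cell cycle lists (rows), with genes called by limma filled, others open, and a black bar at the median of each list. The cell cycle lists lie furthest to the left, with medians of -1.99 and -2.09, and the modification list is centred near 0.

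Markers of cell types moved beside these ratios. Their counts stand beside 25.8% of all genes called lower and 21.9% called higher. Of the crypt stem cell markers 8 of 9 tested were called lower, and of the goblet cell markers 7 of 10 were called higher, among them Muc2, the main secreted mucin, at 3.76 ± 0.58 (limma, adjusted p = 0.000475). The goblet marker Tff3 was not called, at -1.75 in replicate 1 and -0.16 in replicate 2. The summed signal of the goblet markers was 431321 to 725409 units in RNA labelled Lgr5-GFP and 42749 to 147627 units in RNA labelled CD24hi, on the 3 arrays used for the cell cycle lists. Tuft cell markers were called higher for 9 of 9 tested and absorptive colonocyte markers for 5 of 10. Epithelial markers were mostly not called, with 7 of 10 neither higher nor lower. Stromal and endothelial markers were tested for 3 of 12, with 1 called higher and 1 lower.

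Neuronal and endocrine markers are given beside Stmn3, Tubb3 and Tuba1a, genes best known from neurons. Enteroendocrine markers were called higher for 9 of 14 tested and lower for 0, beside 21.9% and 25.8% of all genes. Chgb, a granin of secretory granules, was at 3.87 ± 1.02 (limma, adjusted p = 0.000782). Among those not called, hormone genes changed sign between replicate 1 and replicate 2. Gcg was at -1.69 and 2.01, Pyy at -0.94 and 2.48, and Cck at -0.67 and 1.26. The summed signal of the enteroendocrine markers was 58779.5 to 136552 units in RNA labelled Lgr5-GFP and 5552 to 31074 units in RNA labelled CD24hi, on the same arrays. The defining factors Neurod1 and Rfx6 and the granule genes Scg2 and Syp were not well above background on any array with a value. Enteric neuron markers summed, before normalization, to 515 to 892 units and 505 to 731 units in the same order. Of 14 listed, 6 were never well above background. Of 5 tested, 1 was called, Nefl, at 0.53 ± 0.16 (limma, adjusted p = 0.0195). Nefl was above background on 3 of 3 arrays in RNA labelled Lgr5-GFP and on 1 of 3 in RNA labelled CD24hi. It passed the filter only through the population where it was higher, so nothing is read from that call. Glial markers were called lower for 1 of 5 tested. The part of these cell types in the member ratios was not tested.

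Sizes and calls of several list genes depended on the processing. With marked spots kept, Tubg1, Arl2, Tbcel, Tpgs1, Sirt2, Ttll10, Lrrc49, Camsap3, Mapk8, Ppp2r1a and Nefl were no longer called. Centring on the median in place of loess also ended the call of Tbcel, and the mean over probes that of Mapk8. The processed signals or the series table gave ratios further from 0, down to -3.41 for Aurkb, -3.51 for Fignl1 and -3.19 for Tpx2, and up to 2.50 for Nefl. Tubb4a was at -1.81 in replicate 1 and -0.64 in replicate 2.

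The member ratios were recomputed under 15 alternatives. Stmn1 stayed between -4.29 and -3.10, Tubb5 between -2.76 and -2.08 and Tuba1a between 1.04 and 1.93, and each was called in 12 of the 13 alternatives with a test. The exception is the background step given above. The signs of Tuba1c, Tuba4a, Tubb2a and Tubb3 turned in at least 1 alternative. Tubb2a and Tubb2b were called lower as well when arrays were centred on their median in place of loess, at -0.47 and -0.53. That centring moved the median of all genes to -0.25, so relative to it these members lay closer to 0. They were also called without the dye swap of replicate 1, at -0.40 and -0.36. In all, Tubb2b was called lower in 5 of the 11 alternatives that tested it, at ratios between -1.15 and -0.21 over the alternatives, and Tubb2a in 2 of 13. The Tubb2a calls are those of the probe shared with other tubulin genes. The probes listed for Tubb2a alone stayed above 0 in all 15 alternatives, at 0.06 to 0.41 (A_51_P103659) and 0.06 to 0.70 (A_51_P490023).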

How the data were processed

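RNA of 2 sorted populations was measured on 4 two-colour Agilent arrays, with 300 ng labelled per channel per the labels. Per the file headers, scans were read with Feature Extraction 10.5.1.1, and the deposited intensity values were mean spot signals and median local backgrounds, with processed signals that the software had background-subtracted and dye-normalized. The deposited log10 ratio was red over green of the processed signals. The deposited series table held log2 ratios of red over green, with its normalization not given in the sources used here.

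Background was corrected with normexp (offset 50) in limma 3.58.1 (R 4.3.3), leaving out spots of uneven local background before the fit, a step chosen after its effect was known. Arrays were normalized by loess (span 0.3, 4 iterations) and spots marked as outliers were left out. Array and swap were averaged per replicate, and limma tested the 2 replicate ratios against 0, with Benjamini-Hochberg adjustment over 14801 genes (1 residual and 4.69 prior degrees of freedom). Probes had to be well above background in at least 1 population on all arrays with a value, and each gene took its brightest probe. The number of arrays limits the precision. Symbols came from RefSeq accessions for 27041 gene spots, and the file's name was kept for 16338. The script was tested on simulated data. Summed signals of a list took the brightest probe per gene, with values below 0 set to 0. They were not normalized, and the dyes are not balanced in them. RNA labelled CD24hi was red on both first arrays, and RNA labelled Lgr5-GFP was red on the swap used. The red median was the higher on each, at 197 against 109, 169 against 94.2 and 164 against 110 units.

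Members and lists were chosen with earlier results of these data known. Named genes were the members, up to 3 called genes per direction and 1 not called per list, up to 2 per marker list, the sort markers and the 6 genes most like Stmn1; not all are described. The 15 alternatives changed background, normalization, filters, the probe rule and the arrays used. One marker list and some probe sequences are not reported here.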

Additional observations from a re-analysis of the deposited data

Results flagged for a closer look

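One array stood apart within a gene near Stmn1. Mcm6 was at a log2 ratio of -2.49 on the first array of replicate 2 and between -3.18 and -3.08 on the other 3 arrays, so that 1 value lay farther from its neighbours than a spread of 4 values usually allows. It is 1 of 36 genes and probes with 4 values that were examined, and chance marks about 1 in 20. Its direction was the same on all 4 arrays.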

How the results depend on the processing

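With spots of uneven local background kept in the normexp fit, limma called 0 of 14801 genes (lowest adjusted p = 0.0587), 0 members and 0 pathway genes in either direction, against 7067 genes (3247 higher and 3820 lower), 2 members lower and 1 higher, and 52 pathway genes lower and 17 higher. With marked spots kept, 3731 genes were called (1435 higher and 2296 lower), with 33 pathway genes lower and 3 higher. Centring each array on its median in place of loess called 4 members lower and 10 pathway genes higher. It gave 29.1% of calls higher, against 45.9% with loess, and the processed signals gave 34.6%, with medians of all genes of -0.25 and -0.26. Leaving out each array in turn gave 983 to 8540 calls (500 to 3990 higher and 483 to 4550 lower), 2 to 4 members lower, and 9 to 59 pathway genes lower and 1 to 23 higher. The fewest calls came without the first array of replicate 1, where 6031 genes were tested, and the most without its dye swap. Leaving out an array or a replicate put Pak1 between -0.0351, reversed and not called without that first array, when another probe stood for it, and 0.53. Without each replicate in turn, which leaves no test, Stmn1 was at -3.15 and -4.29. Of 835 tested values of the 68 named list genes under these alternatives, 720 kept their direction and side of the threshold. Causes were not tested. The ratio within each array already pairs the 2 RNAs. Stmn3, Tubb2b, Tubb3 and the Tubb2a probe A_51_P103659 were limited by signal over background.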
